A study of Mus musculus with 12 samples.

Results

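The comparison asked how splenic regulatory T (Treg) cells that lack functional Foxp3 differ when they also lack Rictor. It rests on 8 of the 12 RNA-seq libraries of the series, chosen by their genotype label: 4 from Foxp3-deficient Treg cells (replicates 1, 3, 4 and 5) and 4 from Foxp3-deficient and Rictor-deficient Treg cells, called double-deficient here (replicates 2, 3, 4 and 5). Cells came straight from the spleens of female mice aged 4 weeks and were double-sorted as CD4+RFP+ or CD4+YFP+. The remaining 4 libraries, from WT (Foxp3RFP) Treg cells, give a reference level and share the estimate of the spread in each fit, and p-values measure the spread between libraries, since the labels do not tie each library to its own mouse.

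The Foxp3-deficient cells were from Foxp3∆EGFPiCre/RFPR26YFP females, in which one X-linked Foxp3 allele is replaced by an EGFP-Cre fusion and the other carries an RFP reporter. The double-deficient cells were from Foxp3∆EGFPiCre/+Rictor∆/∆R26YFP females. All 8 libraries therefore share the ∆EGFPiCre allele, the Cre that Foxp3 transcription drives and the R26YFP reporter that Cre switches on. Both kinds of female also hold Treg cells with an intact Foxp3 allele, because X inactivation picks 1 allele per cell. The other Foxp3 allele (RFP or +) differs between the groups along with Rictor, so the effects of these 2 differences cannot be told apart. The labels write both Rictor alleles as ∆ and do not give the exons removed or the share of cells that lost them.

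Rictor is the defining subunit of mTOR complex 2 (mTORC2), a kinase complex that phosphorylates AKT, SGK and PKC kinases at sites that stabilise or fully activate them. Active AKT and SGK1 phosphorylate the FOXO1 and FOXO3 transcription factors, which then leave the nucleus, and in T cells FOXO factors drive genes of lymph node homing and survival such as Klf2 and Il7r. Foxp3 is the lineage factor of Treg cells, and cells that transcribe a null Foxp3 allele keep part of the Treg program but lose suppressive function.

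Across 13196 genes with enough reads, 3585 (27.2%) differed between double-deficient and Foxp3-deficient cells at a Benjamini-Hochberg adjusted p under 0.05 in edgeR's quasi-likelihood test, 1834 higher and 1751 lower. These calls followed transcript length. Short transcripts were mostly higher and long transcripts mostly lower in the double-deficient libraries. A second fit removed a smooth trend with transcript length and GC content from each library, and it called 2482 genes (18.8%), 9.84% of all genes higher and 8.96% lower. In both fits 1749 genes (13.3%) passed in the same direction, of which 975 were higher (7.39% of all genes tested) and 774 lower (5.87%). Of these, 521 (3.95%) differed at least 2-fold, 285 (2.16%) upward and 236 (1.79%) downward. The libraries of the groups did not overlap for 3298 genes (25%), and 1082 (8.2%) passed both fits without overlap at a mean of at least 10 CPM. Below, "rose" and "fell" are used only of genes that passed both fits, log2 fold changes are double-deficient minus Foxp3-deficient, and levels are CPM, counts scaled to a common library size, as mean ± SD with n = 4. Against them stand 7.39% and 5.87% of all genes as the background of higher and lower calls.

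The length trend itself was a property of whole libraries. The slope of a library's log2 CPM deviation per doubling of transcript length ran from -0.18 to -0.06 in the double-deficient libraries and from -0.04 to 0.27 in the Foxp3-deficient libraries, with no overlap (difference -0.22, exact two-sided permutation p = 0.0286, the smallest that 4 against 4 allows, adjusted p = 0.0476 over 10 measures). Foxp3-deficient replicate 1 had the highest slope, at 0.27, and without it the difference was -0.16. In the shortest of 5 classes of transcript length, up to 1825 bases, 687 of 1868 genes were called higher and 30 lower in the unadjusted fit, with a median log2 fold change of 0.32. In the longest class, from 5076 bases, 92 of 1867 were called higher and 769 lower, with a median of -0.28. After the trends were removed the medians of the 5 length classes lay between -0.01 and 0.01. Measures of the libraries moved with the groups too. Reads assigned to no gene feature made up 5.004% ± 0.366 in double-deficient and 7.83% ± 1.51 in Foxp3-deficient libraries. Reads without a unique alignment made up 32.1% ± 0.854 and 26.9% ± 2.80, and reads counted in genes 60.5% ± 0.738 and 62.8% ± 1.89. Ambiguous reads made up 2.32% ± 0.0216 and 2.43% ± 0.0213. The slope of log2 CPM deviation per 10 points of GC content was -0.0479 ± 0.0234 and 0.034 ± 0.0314. For each of these measures the exact permutation p was 0.0286 (adjusted p = 0.0476). Their part in the gene results was not tested beyond the length and GC adjustment.

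**Figure D1:**
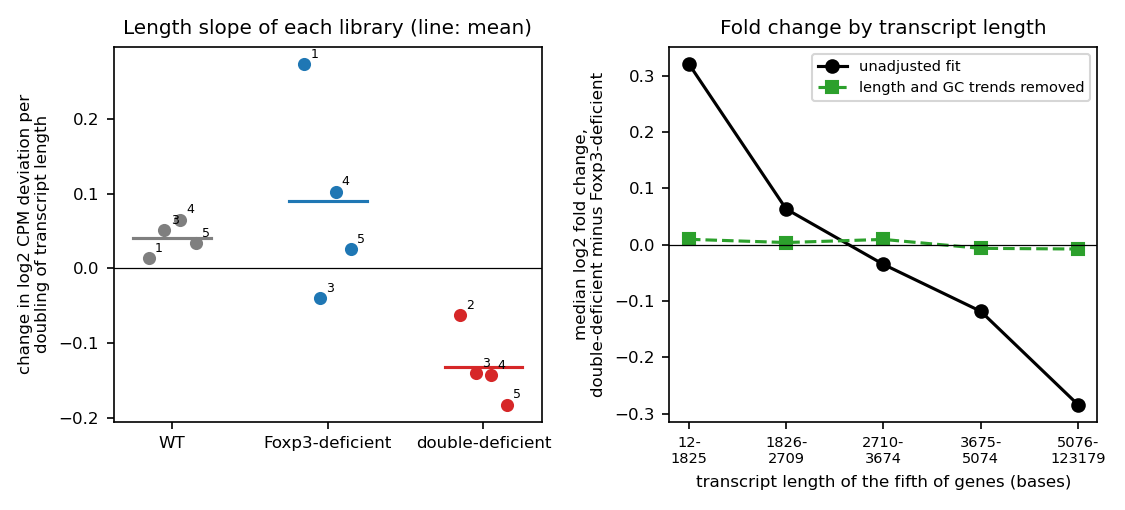
Left, each point is 1 library's slope of log2 CPM deviation per doubling of transcript length, numbered by replicate, and the line is the group mean of 4. Right, the median log2 fold change of genes in 5 classes of transcript length, which falls from 0.32 to -0.28 in the unadjusted fit and stays between -0.01 and 0.01 once the trends are removed.

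The total of reads in genes ran from 16603621 to 23382341 in the 8 libraries. On the first principal component, with 42.7% of the variance, the double-deficient libraries (22.9 to 39.6) lay apart from the Foxp3-deficient libraries (-61.8 to -14.3), and they did so after the trends were removed (23.1 to 39.1 against -55.9 to -12.4). On the second component, with 16.9%, Foxp3-deficient replicate 3 stood alone at -59.4. The T cell marker Cd4 was at 867 ± 94.1 CPM in double-deficient, 1079 ± 168 CPM in Foxp3-deficient and 757 ± 20.3 CPM in WT libraries.

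Rictor itself was measured at 157, 130.1, 131 and 145 CPM in the double-deficient libraries and at 199, 163, 229 and 164 CPM in the Foxp3-deficient libraries. Every double-deficient library was below every Foxp3-deficient one, and WT libraries averaged 148 ± 14.4 CPM. The difference was 1.34-fold in the unadjusted fit (log2 fold change -0.42 with an SE of 0.11, edgeR adjusted p = 0.0129) but did not pass once the trends were removed (-0.20, SE 0.09, edgeR adjusted p = 0.142). The gene (chr15:6708379-6800401, GRCm38, plus strand) has a transcript of 9312 bases, in the length class where most calls were downward. A gene-level count takes reads from every exon, and the labels do not say which exons the ∆ allele lacks, so this level does not check the deletion. Foxp3 was at 102 ± 13.7 CPM in double-deficient and 118 ± 22.8 CPM in Foxp3-deficient cells, against 633 ± 75.8 CPM in WT, and was not called between the 2 deficient groups (log2 fold change -0.21 with an SE of 0.13, edgeR adjusted p = 0.246).

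Of 14 tested subunits and regulators of the mTOR complexes, Rictor included, 1 rose and 0 fell. Prr5l, which binds mTORC2 in place of its relative PRR5, was at 56.6, 75.2, 73.4 and 71.5 CPM in double-deficient and at 48.3, 37.3, 32.9 and 42 CPM in Foxp3-deficient libraries. The groups did not overlap, and WT cells had 3.87 ± 0.66 CPM. Prr5l rose 1.72-fold (log2 fold change 0.79 with an SE of 0.14, edgeR adjusted p = 0.00143) and 1.96-fold with the trends removed (edgeR adjusted p = 0.000119). In the unadjusted fit alone, Mtor, the kinase of both complexes (log2 fold change -0.64), and Tsc1 and Tsc2, which form the brake on mTORC1 (-0.63 and -0.40), were called lower with Rictor. With the trends removed these 3 were at -0.15, -0.19 and -0.00, and none was called. Mapkap1 and Mlst8, the other core mTORC2 subunits, were at -0.10 and -0.12 in the unadjusted fit, and neither was called in either fit. Tbc1d7, the third protein of the TSC complex, was called only with the trends removed (-0.74, edgeR adjusted p = 0.0356), and that call was lost when any of 6 of the 8 libraries was left out, with log2 fold changes between -0.84 and -0.66.

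**Figure D2:**
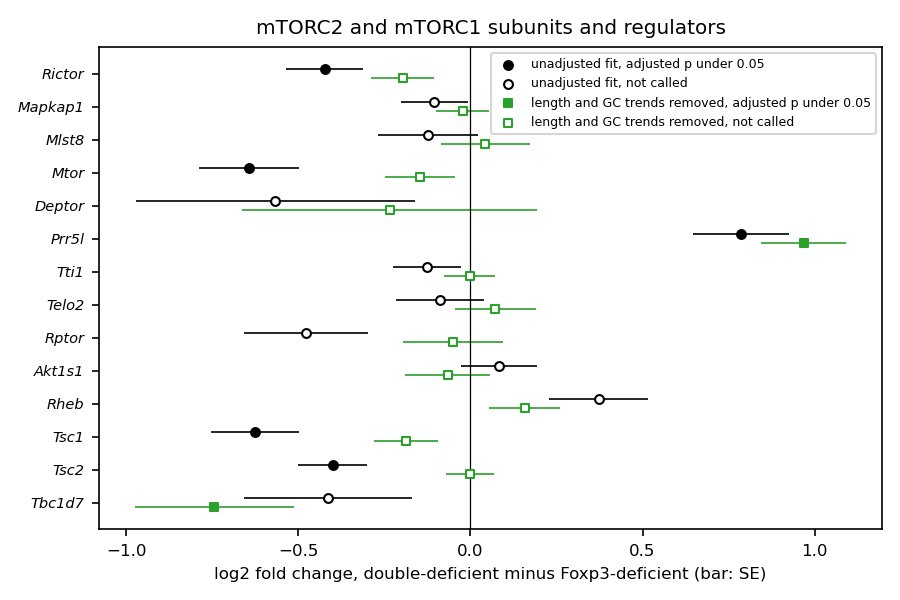
Log2 fold change with its SE of the 14 tested mTORC2 and mTORC1 genes in the unadjusted fit (circles) and with length and GC trends removed (squares), filled where the edgeR adjusted p was under 0.05. Of the 5 genes called in the unadjusted fit, Prr5l keeps its call and Rictor, Mtor, Tsc1 and Tsc2 do not.

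Among 28 AKT, SGK and PKC kinases and their regulators, 2 rose and 2 fell. With any 1 library left out 2 to 3 rose and 1 to 4 fell, 4 without double-deficient replicate 2 and 1 without Foxp3-deficient replicate 4 or double-deficient replicate 3, 4 or 5. Ndrg1, whose protein is a substrate of SGK1, was at 30.1 ± 2.44 CPM in double-deficient and 19.99 ± 2.04 CPM in Foxp3-deficient cells and rose 1.51-fold (log2 fold change 0.59 with an SE of 0.13, edgeR adjusted p = 0.00527; 0.68 with the trends removed). Pik3r5, the regulatory subunit of PI3K gamma, was at 273 ± 20.6 and 213 ± 18.6 CPM and rose 1.28-fold (edgeR adjusted p = 0.00834). Prkch, which encodes PKC eta, fell from 843 ± 46.3 to 654 ± 15.5 CPM, or 1.29-fold (edgeR adjusted p = 0.00224). Prkcb, for PKC beta, fell 1.37-fold (edgeR adjusted p = 0.0197), but leaving out Foxp3-deficient replicate 1 or 4 or double-deficient replicate 4 or 5 ended its call in each fit, and double-deficient replicate 3 did so with the trends removed (log2 fold changes from -0.58 to -0.33 unadjusted and -0.49 to -0.30 with the trends removed). Sgk1 stood at 205 ± 29.6 and 214 ± 53.6 CPM (log2 fold change -0.06 with an SE of 0.18, edgeR adjusted p = 0.834), while WT cells had 52.2 ± 13.2 CPM. In the unadjusted fit 3 members of this list were called higher and 9 lower. Among those lower were Gsk3b and Pik3r1, with log2 fold changes of -0.59 and -0.52. Gsk3b and Pik3r1 lay at -0.30 and -0.24 with the trends removed and were not called. The fit with the trends removed called 7 members higher and 2 lower.

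The FOXO factors moved in opposite directions. Foxo1, the main FOXO factor of T cells, was at 433, 379, 369.6 and 331 CPM in double-deficient and at 836, 634, 773 and 583 CPM in Foxp3-deficient libraries. It fell 1.87-fold (log2 fold change -0.90 with an SE of 0.12, edgeR adjusted p = 0.000152) and 1.38-fold with the trends removed (edgeR adjusted p = 0.00107). Foxo3 was at 35, 15.9, 45.5 and 40.7 CPM against 12.7, 10.004, 14.3 and 12.1 CPM. No library overlapped between the groups, and double-deficient replicate 3 lay nearest to them. Foxo3 rose 2.79-fold (log2 fold change 1.48 with an SE of 0.25, edgeR adjusted p = 0.00124) and 3.80-fold with the trends removed (edgeR adjusted p = 0.000269).

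Among the 20 tested FOXO factors and FOXO-induced genes, 3 rose, among them Foxo3 and Il7r, and 1 fell (Foxo1), with a median log2 fold change of -0.09, beside -0.02 over all genes. Without Foxp3-deficient replicate 3, alone or with replicate 1, 5 rose, and 2 fell without Foxp3-deficient replicate 5 or double-deficient replicate 2. Il7r, the IL-7 receptor alpha chain, rose 1.62-fold from 359 ± 30.9 to 581 ± 49.1 CPM (edgeR adjusted p = 0.000106). Il7r lies 2705 kb from Rictor on chromosome 15, so a difference in DNA flanking the engineered Rictor allele cannot be told apart from the genotype at this gene. Klf2, the FOXO-driven regulator of T cell exit from tissue, was at 1655 ± 97.7 and 1347 ± 371 CPM (log2 fold change 0.30, edgeR adjusted p = 0.132).

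The FOXO motif was searched in promoters, read as GTAAACA on both strands from 250 bases before to 50 after the transcript start (RefSeq, GRCm38.p6). Genes with a promoter sequence were counted, and a match in any promoter of a gene sufficed. The motif stood in 26 of 722 genes that rose (3.60%, exact 95% binomial interval 2.37 to 5.23) and in 13 of 513 that fell (2.53%, 1.36 to 4.29). Over all genes tested it stood in 288 of 9307 (3.09%). The intervals of the first and the second share both hold the share of all genes. Of 15 such genes in the FOXO list, 4 held it (26.7%, 7.79 to 55.1), an interval that lies above the share of all genes. These were Bcl2l11, Btg1, Sesn1 and Txnip, of which 0 passed both fits, and the list holds FOXO factors and genes known as FOXO-induced. A match is a description of letters, not of binding. Among the genes described here, the risen Pcsk1, Dapl1, Il1rl1, Gbp3, Ltb, Prdm1 and Bbc3 hold it, as do the fallen Il21r and the uncalled Mapkap1. The promoters of Pcsk1 (chr13:75089607-75089906, plus strand, motif at position -44 from the start) and Dapl1 (chr2:59484403-59484702, plus strand, position -164) are shown as examples, picked after their values were seen, with the motif in capitals.
Pcsk1: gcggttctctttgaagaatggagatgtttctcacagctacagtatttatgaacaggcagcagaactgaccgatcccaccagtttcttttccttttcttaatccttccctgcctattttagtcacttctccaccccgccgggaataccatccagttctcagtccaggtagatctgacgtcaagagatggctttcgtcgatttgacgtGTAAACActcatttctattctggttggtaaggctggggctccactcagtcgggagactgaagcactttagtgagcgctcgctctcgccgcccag
Dapl1: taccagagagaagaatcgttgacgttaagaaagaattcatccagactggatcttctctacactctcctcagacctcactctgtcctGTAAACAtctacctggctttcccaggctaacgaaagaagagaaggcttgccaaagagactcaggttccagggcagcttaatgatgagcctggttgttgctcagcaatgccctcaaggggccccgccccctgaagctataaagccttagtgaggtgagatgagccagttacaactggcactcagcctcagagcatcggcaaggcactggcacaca

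Of 30 tested Treg signature genes, 18 rose and 0 fell, beside 7.39% and 5.87% of all genes. Their median log2 fold change was 0.63 (0.50 with the trends removed), beside -0.02 over all genes in each fit. Medians of some other lists were similar, such as 0.59 (0.57) for dissociation and heat shock genes and 0.65 (0.25) for cytosolic ribosomal protein genes. The count of risen members was 15 to 18 with any 1 library left out and 14, with 1 fallen, without Foxp3-deficient replicates 1 and 3. The 18 were Il2ra, Il2rb, Tnfrsf18, Tnfrsf4, Nrp1, Nt5e, Itgae, Gpr83, Icos, Capg, Socs2, Izumo1r, Il10, Ebi3, Fgl2, Prdm1, Cd83 and Lag3. Summed over the list, the level was 4745 to 5393 CPM in double-deficient, 3360 to 3927 CPM in Foxp3-deficient and 7881 to 8844 CPM in WT libraries. The 3 ranges did not overlap and the double-deficient sums lay between the other groups. In bulk libraries, more cells of a type and more RNA per cell cannot be told apart.

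Fgl2, a secreted effector of Treg suppression, changed most in this list. It was at 79.7, 108, 110.4 and 128 CPM in double-deficient and 7.9, 5.95, 8.52 and 9.71 CPM in Foxp3-deficient libraries. All double-deficient libraries were also above the WT mean of 53.3 ± 9.64 CPM. Fgl2 rose 13.2-fold (log2 fold change 3.72 with an SE of 0.18, edgeR adjusted p = 8.69e-09) and 11.7-fold with the trends removed (edgeR adjusted p = 5.98e-09). Il10, the suppressive cytokine, was at 26, 28.7, 48.2 and 60.8 CPM against 1.14, 11, 2.58 and 4.81 CPM, and at 8.55 ± 4.22 CPM in WT. Its groups did not overlap, although Foxp3-deficient replicate 3 was well above the other 3. Il10 rose 8.48-fold (log2 fold change 3.08 with an SE of 0.62, edgeR adjusted p = 0.00575).

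Genes of Treg surface proteins rose by less. Gpr83, an orphan receptor enriched in Treg cells, was at 183, 189, 185 and 184 CPM in double-deficient and 101, 54.7, 83.9 and 84.8 CPM in Foxp3-deficient libraries, beside 236 ± 8.81 CPM in WT. Gpr83 rose 2.28-fold (log2 fold change 1.19 with an SE of 0.13, edgeR adjusted p = 3.24e-05). Nrp1, a semaphorin receptor of thymus-derived Treg cells, rose 1.92-fold from 133 ± 35 to 255 ± 8.75 CPM (edgeR adjusted p = 0.000298), with 444 ± 27 CPM in WT. Itgae, the CD103 integrin chain that binds E-cadherin, rose 2.11-fold from 6.1 ± 2.49 to 13 ± 2.59 CPM (edgeR adjusted p = 0.00513), far under the 56.8 ± 8.21 CPM of WT. Il2ra, the high-affinity IL-2 receptor chain CD25, was at 262, 312, 237 and 231 CPM against 214, 165, 207 and 155 CPM, and at 534 ± 17.6 CPM in WT. All 4 double-deficient libraries were above all Foxp3-deficient ones, and Il2ra rose 1.40-fold (log2 fold change 0.49 with an SE of 0.11, edgeR adjusted p = 0.00631). Lag3, an inhibitory receptor for MHC class II, rose 2.74-fold from 3.45 ± 0.745 to 9.47 ± 1.41 CPM (edgeR adjusted p = 0.00118).

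Prdm1, which encodes the effector Treg factor Blimp-1, was at 39.7, 41.9, 39.5 and 42 CPM in double-deficient and 23.4, 28.8, 16.7 and 25.6 CPM in Foxp3-deficient libraries. Its groups did not overlap, and it rose 1.73-fold (log2 fold change 0.79 with an SE of 0.16, edgeR adjusted p = 0.00359; 1.02 with the trends removed). Capg, an actin capping protein, rose 1.89-fold from 227 ± 40.5 to 428 ± 50.3 CPM (edgeR adjusted p = 0.000182). Of the risen members, Ebi3, a chain of the cytokine IL-35, lost its call with the trends removed without Foxp3-deficient replicate 1 or 4 or double-deficient replicate 3 (0.65 to 1.16), and Tnfrsf4, the receptor OX40, without Foxp3-deficient replicate 3 or 5 or double-deficient replicate 3, 4 or 5 (0.24 to 0.42). Among the members without a call, Ctla4 was at 347 ± 21 and 246 ± 95.4 CPM (log2 fold change 0.50, edgeR adjusted p = 0.0564), with Foxp3-deficient replicate 3 at 387 CPM. Ikzf2, the factor Helios, was at 106 ± 14.1 and 140.1 ± 40.8 CPM (log2 fold change -0.40, edgeR adjusted p = 0.113), against 347 ± 63.1 CPM in WT.

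**Figure D3:**
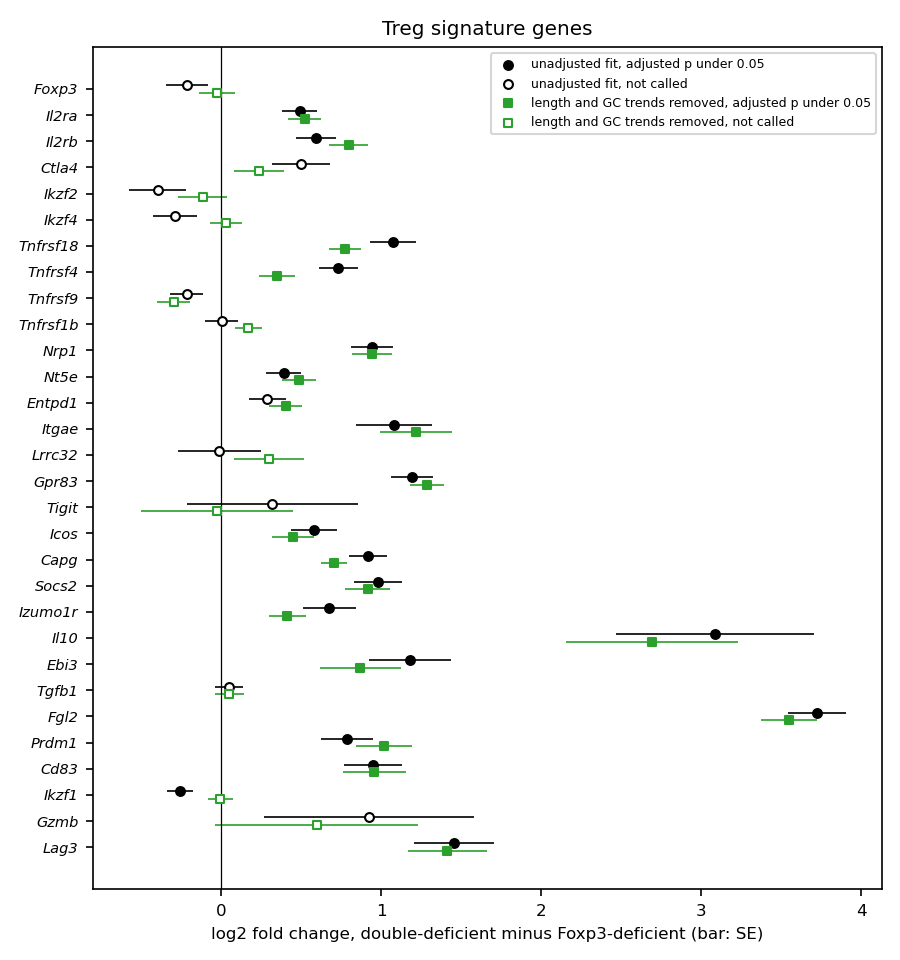
Log2 fold change with its SE of the 30 tested Treg signature genes in the unadjusted fit (circles) and with length and GC trends removed (squares), filled where the edgeR adjusted p was under 0.05. The 18 genes filled to the right of 0 in both fits include Fgl2 at 3.72 and Il10 at 3.08 in the unadjusted fit.

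Outside the Treg list, the genes that rose most were not T cell lineage factors. Plac8, a small cysteine-rich protein of leukocytes, was at 74.3, 94.7, 77.4 and 69.2 CPM in double-deficient and 1.73, 11.9, 3.15 and 3.12 CPM in Foxp3-deficient libraries, and at 1.43 ± 0.412 CPM in WT. The groups lay far apart, and Plac8 rose 16.2-fold (log2 fold change 4.02 with an SE of 0.46, edgeR adjusted p = 0.000201). Gbp2b, an interferon-inducible GTPase, was at 157, 232, 175 and 126 CPM against 18.2, 34, 20.6 and 17.2 CPM and rose 7.70-fold (edgeR adjusted p = 1.64e-06). Pcsk1, a prohormone convertase, rose 6.85-fold from 4.14 ± 1.14 to 28.4 ± 4.83 CPM (edgeR adjusted p = 2.01e-06). Cysltr1, a receptor for cysteinyl leukotrienes, rose 7.26-fold from 3.51 ± 1.1 to 25.7 ± 6.04 CPM (edgeR adjusted p = 1.89e-06). Lgals3, which encodes galectin-3, rose 6.15-fold from 10.6 ± 7.72 to 65.8 ± 19.6 CPM (edgeR adjusted p = 0.00173). For these 5 genes no Foxp3-deficient library reached any double-deficient library.

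Eno1b had the highest fold among the genes chosen by rule, and its identity is uncertain. It was at 7.53, 65.1, 35.4 and 30.3 CPM in double-deficient and 0.162, 0.0614, 0.155 and 0.13 CPM in Foxp3-deficient libraries (255-fold, edgeR adjusted p = 2.19e-05). Eno1b on chromosome 18 is a near-identical copy of the glycolytic enzyme gene Eno1 on chromosome 4, and read assignment between the copies can shift. Eno1 was at 430.2, 230.1, 304 and 303 CPM against 374, 375, 430.3 and 400.1 CPM. Among the double-deficient libraries, replicate 2 had the lowest Eno1b level and the highest Eno1 level. Whether reads of Eno1 were counted as Eno1b was not tested. A similar pattern of presence and near absence, noticed after the values were seen, was 2610305D13Rik, at 17.9, 48.5, 27.6 and 32.6 CPM in double-deficient libraries, with 1 read in the 4 Foxp3-deficient libraries together and 2624 reads in the double-deficient ones. The ratio of their reads per library total was 2397, and its 95% interval from counting error ran from 430 to 94715.

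**Figure D4:**
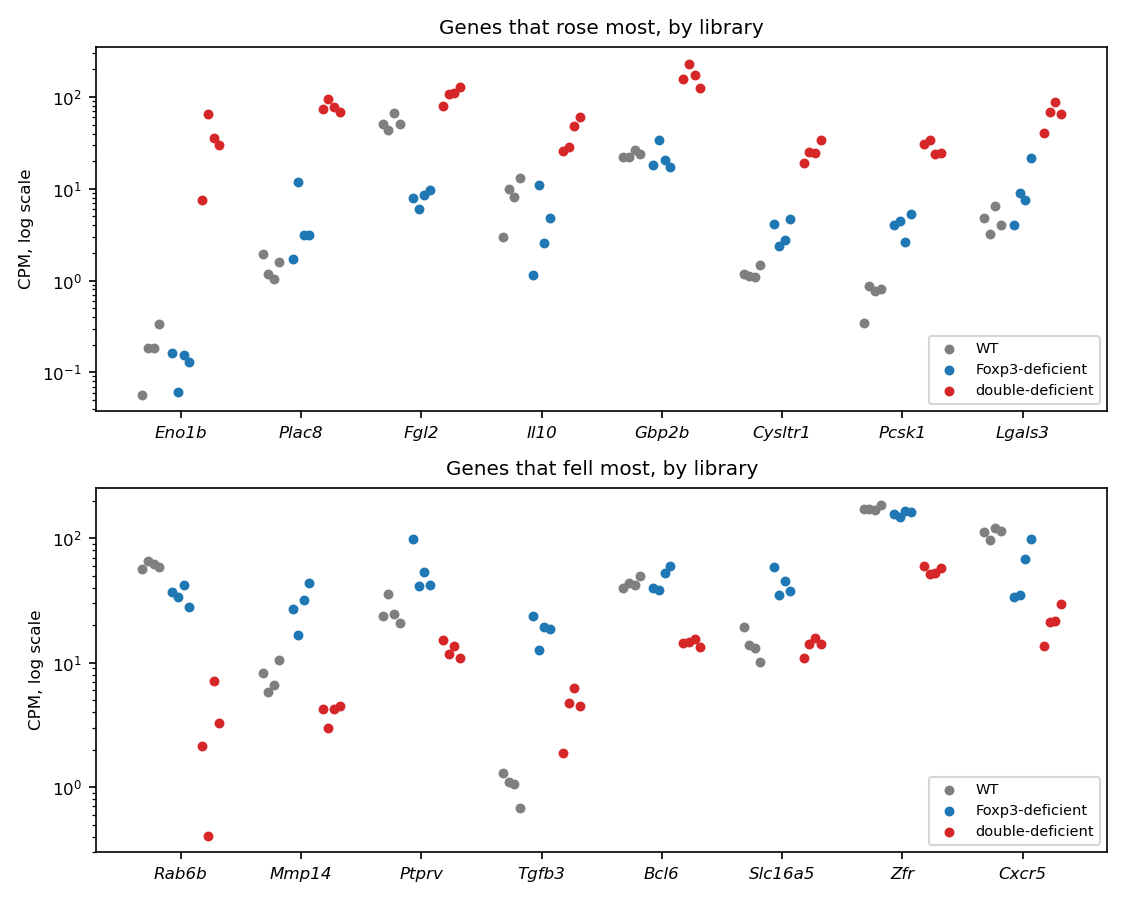
CPM on a log scale of the 8 genes that rose most (top) and the 8 that fell most (bottom), with 1 point for each of the 4 WT, 4 Foxp3-deficient and 4 double-deficient libraries. In each panel the double-deficient points lie clear of the Foxp3-deficient points, by rule, with Fgl2 13.2-fold higher and Zfr 2.86-fold lower in double-deficient cells.

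Some markers of other cell types rose along with these genes. Summed B cell markers were 779 to 948 CPM in double-deficient, 674 to 836 CPM in Foxp3-deficient and 1272 to 1505 CPM in WT libraries, with Ms4a1 at 0 in all Foxp3-deficient libraries. Of 7 tested B cell markers 2 rose, Cd79b from 8.49 ± 1.32 to 15.8 ± 2.42 CPM and Ighd from 0.855 ± 0.39 to 3.11 ± 0.59 CPM. Of 3 tested plasma cell markers 2 rose, among them Jchain, the joining chain of secreted immunoglobulin, from 0.902 ± 0.744 to 11.6 ± 2.73 CPM, and 1 rose without Foxp3-deficient replicate 5 or double-deficient replicate 3 or 5. Myeloid markers summed to 64.5 to 82.9 CPM against 24.3 to 52.5 CPM, and 1 of 4 tested rose (2 without Foxp3-deficient replicate 3), Cst3, from 37.4 ± 12.9 to 70.5 ± 7.44 CPM. Cst3 made up most of the myeloid sum, whose mean was 74.9 CPM in double-deficient and 40.6 CPM in Foxp3-deficient libraries. Adgre1, Cd14, S100a8 and S100a9 were at 0 in all Foxp3-deficient libraries, and Adgre1, S100a8 and S100a9 also in all WT libraries. NK and CD8 T cell markers summed to 57.5 to 61.8 CPM against 40.2 to 50.6 CPM, and 0 of 9 passed both fits. Dendritic cell markers summed to 72.7 to 89 CPM against 36.1 to 71.7 CPM, with 160 to 176 CPM in WT. Erythroid and platelet markers summed to 0.396 to 1.08 CPM against 0.39 to 1.96 CPM. Of 6 dendritic cell markers and 1 erythroid marker tested, 0 passed both fits. Whether cells of these types contribute to Plac8, Lgals3, Il10 or Fgl2 was not tested.

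Genes of the follicular helper (Tfh) program split. Bcl6, the factor that specifies Tfh and follicular Treg cells, was at 14.4, 14.8, 15.5 and 13.5 CPM in double-deficient and 39.9, 38.2, 52.9 and 60.3 CPM in Foxp3-deficient libraries, beside 43.8 ± 4.37 CPM in WT. No library overlapped, and Bcl6 fell 3.29-fold (log2 fold change -1.72 with an SE of 0.14, edgeR adjusted p = 2.69e-06) and 3.08-fold with the trends removed (edgeR adjusted p = 4.31e-06). Cxcr5, the chemokine receptor that guides cells into follicles, was at 13.7, 21.4, 21.5 and 29.9 CPM against 33.9, 35, 68.3 and 98.4 CPM. The groups did not overlap but the Foxp3-deficient libraries were wide apart. Cxcr5 fell 2.73-fold (log2 fold change -1.45 with an SE of 0.33, edgeR adjusted p = 0.00865). With the trends removed it was at -1.39 (edgeR adjusted p = 0.0246), and this call was lost without Foxp3-deficient replicate 4 or double-deficient replicate 2, 3 or 4, with log2 fold changes between -1.60 and -1.0.

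Of the 13 Tfh genes tested, 3 rose and 2 fell. Slamf6, a homophilic receptor of the SLAM family, was at 899, 971, 856 and 873 CPM in double-deficient and 444, 491, 479 and 521 CPM in Foxp3-deficient libraries. It rose 1.86-fold (log2 fold change 0.89 with an SE of 0.07, edgeR adjusted p = 1.89e-06). The others that rose were Cd200 and the costimulatory receptor Icos, from 117 ± 32.2 to 176 ± 11.1 CPM (log2 fold change 0.58, edgeR adjusted p = 0.01). With the trends removed Icos was at 0.45 (edgeR adjusted p = 0.0258), a call lost without Foxp3-deficient replicate 1, 3 or 4 or double-deficient replicate 5, at 0.37 to 0.65. The count of risen Tfh genes was 1 without double-deficient replicate 5, 4 without Foxp3-deficient replicate 5, and 1, with 4 fallen, without Foxp3-deficient replicates 1 and 3. Without Foxp3-deficient replicate 4 or double-deficient replicate 2, 3 or 4, 1 Tfh gene fell. Sh2d1a, the adaptor of SLAM receptors, was called in the unadjusted fit (log2 fold change 0.84) and not with the trends removed (0.23, edgeR adjusted p = 0.166).

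The other genes that fell most had varied roles. Mmp14, a membrane-bound metalloproteinase, was at 4.26, 2.97, 4.22 and 4.49 CPM in double-deficient and 27.1, 16.8, 32.2 and 43.7 CPM in Foxp3-deficient libraries, with 7.82 ± 2.05 CPM in WT. It fell 7.54-fold (log2 fold change -2.91 with an SE of 0.27, edgeR adjusted p = 7.34e-06). Tgfb3, a TGF-beta ligand, fell 4.29-fold from 18.7 ± 4.6 to 4.34 ± 1.81 CPM (edgeR adjusted p = 0.000298), with 1.04 ± 0.264 CPM in WT. Slc16a5, a monocarboxylate transporter, fell 3.24-fold from 44.4 ± 10.9 to 13.7 ± 2.02 CPM (edgeR adjusted p = 7.13e-05), and WT cells had 14.1 ± 3.78 CPM. Rab6b, a Golgi trafficking GTPase, fell 10.9-fold from 35.3 ± 6.15 to 3.25 ± 2.87 CPM (edgeR adjusted p = 0.000968), whereas WT cells had 61 ± 3.88 CPM. Ptprv, a receptor-type phosphatase gene, fell 4.56-fold from 59.1 ± 27.2 to 12.9 ± 1.92 CPM (edgeR adjusted p = 0.000111), with 26.3 ± 6.53 CPM in WT. In Mmp14, Tgfb3, Slc16a5 and Ptprv the Foxp3-deficient mean was above both the WT and the double-deficient mean, while Rab6b was highest in WT.

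Zfr, which encodes a zinc finger RNA-binding protein, fell with little spread. It was at 59.7, 51.5, 52.7 and 57.7 CPM in double-deficient, 156, 148, 165 and 164 CPM in Foxp3-deficient and 175 ± 8.52 CPM in WT libraries (log2 fold change -1.51 with an SE of 0.08, edgeR adjusted p = 8.69e-09). Zfr (chr15:12117831-12185683, GRCm38, plus strand) lies 5317 kb from Rictor. Within 10 Mb of Rictor, 5 of 40 tested genes rose and 2 fell, or 17.5%, beside 13.3% of all genes. Those that rose were Gm2093, Rpl37, Il7r, Spef2 and 6030458C11Rik, and those that fell were AW549877 and Zfr. The part of flanking DNA from the engineered Rictor allele was not tested.

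Helper cytokine programs moved gene by gene. Of 11 tested Th2 genes, 4 rose and 0 fell. Il1rl1, the IL-33 receptor ST2 of tissue Treg cells and Th2 cells, was at 21.6, 15.9, 33.7 and 37.6 CPM in double-deficient and 9.04, 10.5, 3.36 and 9.02 CPM in Foxp3-deficient libraries, with 33.8 ± 3.43 CPM in WT. It rose 3.41-fold (log2 fold change 1.77 with an SE of 0.31, edgeR adjusted p = 0.00149). Il4, the Th2 cytokine, was at 4.95, 8.52, 9.7 and 14.6 CPM against 0.379, 1.35, 1.34 and 2.12 CPM and rose 7.15-fold (edgeR adjusted p = 0.000548). Gata3, the Th2 factor that Treg cells also use, rose 1.19-fold from 207 ± 7.96 to 247 ± 16.2 CPM (edgeR adjusted p = 0.0191), a call lost in the unadjusted fit without Foxp3-deficient replicate 4 or double-deficient replicate 5 (log2 fold change 0.22 to 0.31), and held with the trends removed (0.36, edgeR adjusted p = 0.00296). The fourth was Plac8.

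Of 13 tested Th17 genes, 1 rose (Irf4) and 3 fell. The risen count was 3 without Foxp3-deficient replicate 3 and 2 without Foxp3-deficient replicate 5, and 2 to 3 fell. Il21r, the IL-21 receptor, fell 1.31-fold from 448 ± 35.7 to 343 ± 11.2 CPM (edgeR adjusted p = 0.00171). Another was the IL-1 receptor gene Il1r1, from 4.14 ± 1.04 to 1.85 ± 0.735 CPM (log2 fold change -1.17), whose edgeR adjusted p of 0.0498 with the trends removed was lost without any of 6 of the 8 libraries (-1.21 to -0.76), and its unadjusted call without Foxp3-deficient replicate 1 or double-deficient replicate 3 or 4 (-1.39 to -0.97). Of 15 tested Th1 genes, 2 rose and 0 fell. Without Foxp3-deficient replicate 5, 6 rose, and 1 fell without Foxp3-deficient replicate 1 or 3 or double-deficient replicate 2. Stat4, the IL-12 signal transducer, rose 1.56-fold from 116 ± 20.6 to 182 ± 11.2 CPM (edgeR adjusted p = 0.000762), and Ccl4, a chemokine, rose from 0.298 ± 0.343 to 5.41 ± 4.26 CPM (edgeR adjusted p = 0.00227).

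Among 14 helper cytokines and ligands, 4 rose and 1 fell, and 3 to 4 rose with any 1 library left out. Ltb, a chain of membrane lymphotoxin, was at 1960.4, 2382, 2215 and 2351 CPM in double-deficient and 785, 1421, 1289 and 1314 CPM in Foxp3-deficient libraries. Ltb rose 1.85-fold (log2 fold change 0.89 with an SE of 0.14, edgeR adjusted p = 0.000767). Cd40lg, the CD40 ligand of T cell help, fell 1.29-fold from 143 ± 27.4 to 111 ± 7.21 CPM (edgeR adjusted p = 0.025) and 1.81-fold with the trends removed (edgeR adjusted p = 0.000302). The unadjusted call of Cd40lg, the fallen gene of the list, was lost without Foxp3-deficient replicate 4 or 5 or double-deficient replicate 3, 4 or 5, at -0.45 to -0.24.

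Homing and chemokine receptors were the list with the most risen members after the Treg, ribosomal and respiratory lists. Of 27 tested, 9 rose and 2 fell, and the count of risen members was 6 to 12 with any 1 library left out, 6 without Foxp3-deficient replicate 1 or 4 or double-deficient replicate 3 or 4. The fallen count was 1 to 3, 1 without Foxp3-deficient replicate 4 or double-deficient replicate 2, 3 or 4. Ccr9, the receptor for gut and thymus homing, was at 89.5, 117, 68 and 62.6 CPM in double-deficient and 40.0, 21.4, 31.7 and 31.8 CPM in Foxp3-deficient libraries, and at 11.5 ± 1.88 CPM in WT. It rose 2.70-fold (log2 fold change 1.43 with an SE of 0.21, edgeR adjusted p = 0.000393). Gpr15, the receptor for homing to the large intestine, rose 3.08-fold from 15.6 ± 3.65 to 47.8 ± 16.2 CPM (edgeR adjusted p = 0.000185). Ccr3, the eotaxin receptor, was at 1.49, 2.57, 3.14 and 4.21 CPM against 0.271, 0, 0 and 0.433 CPM, 231 reads against 15, which is 14.1 times as many per library total (95% interval from counting error 8.35 to 25.5). Gpr183, the oxysterol receptor that positions cells at follicle borders, fell 1.56-fold from 268 ± 31.3 to 172 ± 7.29 CPM (edgeR adjusted p = 0.000127).

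Itgb1, the beta-1 integrin chain, was at 1392, 1517, 1525 and 1943 CPM in double-deficient and 512, 491, 561 and 1354 CPM in Foxp3-deficient libraries. Foxp3-deficient replicate 5 was close to the double-deficient libraries and the other 3 were well below. Itgb1 rose 2.19-fold (log2 fold change 1.13 with an SE of 0.30, edgeR adjusted p = 0.0177), and its call ended without Foxp3-deficient replicate 1 or double-deficient replicate 5 in the unadjusted fit, at 0.98 to 1.62. With the trends removed it ended without any of 6 of the 8 libraries, at 0.97 to 1.58, and held without Foxp3-deficient replicate 5 or double-deficient replicate 2.

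Of 18 naive and resting T cell genes, 5 rose and 1 fell, with 4 to 7 risen when any 1 library was left out and 0 fallen without double-deficient replicate 3 or 5. Igfbp4, an insulin-like growth factor binding protein of naive T cells, was at 1396, 1542, 1509 and 1499 CPM in double-deficient and 583, 423, 819.7 and 677 CPM in Foxp3-deficient libraries, with 208 ± 14.8 CPM in WT. It rose 2.38-fold (log2 fold change 1.25 with an SE of 0.14, edgeR adjusted p = 5.62e-05). Dapl1, a marker of naive T cells, rose 3.88-fold from 11.6 ± 3.1 to 45.1 ± 7.49 CPM (edgeR adjusted p = 1.83e-05). Satb1, a chromatin organiser of T cell development, fell 1.43-fold from 828 ± 80.8 to 581 ± 57.7 CPM (edgeR adjusted p = 0.0013), and its call with the trends removed (-0.26) was lost without double-deficient replicate 3 or 5, at -0.29 to -0.21. Among 12 T helper identity genes 2 rose and 4 fell, with 1 risen without Foxp3-deficient replicate 4 and 7 fallen without Foxp3-deficient replicates 1 and 3. Cd28, the costimulatory receptor, fell 1.42-fold from 473 ± 16.8 to 333 ± 25.6 CPM (edgeR adjusted p = 0.00027), while Cd3d rose 1.59-fold from 344 ± 84.4 to 548 ± 53.7 CPM (edgeR adjusted p = 0.00568).

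Metabolic and protein synthesis lists carried the length trend most. Of 74 nuclear-encoded oxidative phosphorylation genes, 43 were called higher in the unadjusted fit and 20 in both fits, and 0 fell. With the trends removed, 1 was called lower. Of these 74, 63 lay in the shortest length class. In that class 36.8% of genes were called higher in the unadjusted fit and 11.3% in both, and 1.61% were called lower in both. With the trends removed, 211 of its 1868 genes were called higher and 176 lower, of which both fits kept 211 and 30. A short gene called lower only with the trends removed does not pass both fits. A count of 0 fallen therefore says little for such lists. The count of 20 became 6 without Foxp3-deficient replicate 1 or 4 or double-deficient replicate 3, 7 without double-deficient replicate 4, 8 without double-deficient replicate 5, and 8 without Foxp3-deficient replicates 1 and 3. Ndufs4, a complex I subunit, was at 54, 67.8, 67.4 and 75.2 CPM in double-deficient and 20.3, 43.1, 35.2 and 43 CPM in Foxp3-deficient libraries, and Foxp3-deficient replicate 1 was lowest. Ndufs4 rose 1.87-fold (log2 fold change 0.90 with an SE of 0.19, edgeR adjusted p = 0.00362) and 1.48-fold with the trends removed (edgeR adjusted p = 0.00704). The mitochondrially encoded gene mt-Nd1 was called in the unadjusted fit (0.74), except without Foxp3-deficient replicate 4 or double-deficient replicate 5 (0.56 to 0.86), and was at -0.03 with the trends removed. Of the 7 tested genes of its list 0 passed both fits, and with the trends removed 0 were called higher and 2 lower.

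Of 79 cytosolic ribosomal protein genes, 47 were called higher in the unadjusted fit and 25 in both, and 0 fell. With the trends removed, 25 were called higher and 4 lower. Of the 79 genes 69 were in the shortest length class, where few genes could be called lower in both fits. With 1 library left out the count in both fits was 19 to 33. Rps19, a small subunit protein, rose 1.96-fold from 45.2 ± 15 to 88.6 ± 12 CPM (edgeR adjusted p = 0.0043) and 1.65-fold with the trends removed. Reads of ribosomal protein genes can be shared with their pseudogenes, so these levels are uncertain. Of 36 proteasome subunits, 25 lay in the shortest length class. Of the 36, 19 were called higher in the unadjusted fit and 5 in both. With the trends removed, 5 were called higher and 4 lower. The count of risen subunits was 1 to 10 with 1 library left out. It was 1 without double-deficient replicate 5, 2 without double-deficient replicate 3, 3 without Foxp3-deficient replicate 1 or 4 and 10 without Foxp3-deficient replicate 5. How many of these genes passed both fits depended on how the trend was modelled. With merged exon length, 25 respiratory, 30 ribosomal and 10 proteasome genes passed, and with that length and the trend fitted on all genes 38, 38 and 13. Across 9340 genes of at least 5 CPM, which are not independent, Spearman's rho of log2 fold change with transcript length was -0.01 in the version used, -0.15 with merged exon length and -0.30 with the trend fitted on all genes. Across all 13072 tested genes with a length it was 0.10, 0.007 and -0.15, so which version left the least trend differed between the 2 gene sets.

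**Figure D5:**
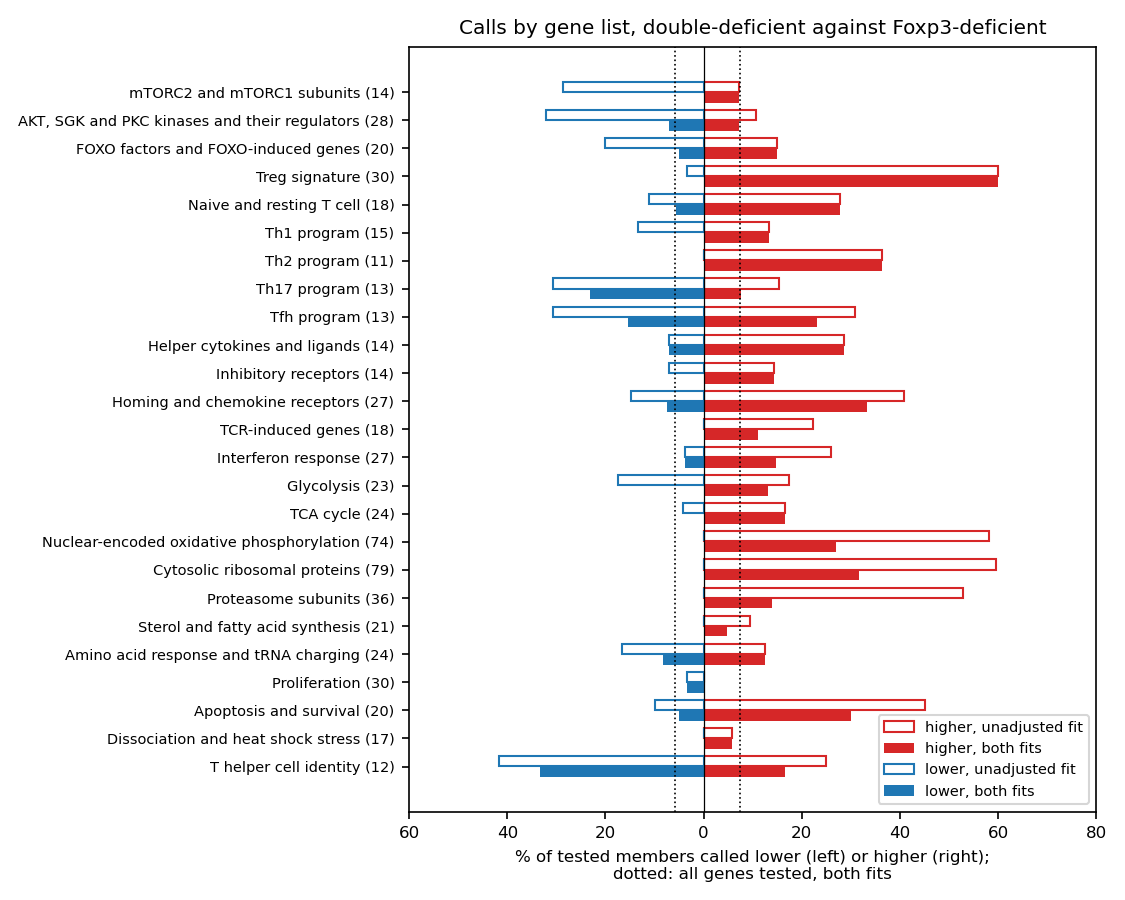
Percent of the tested members (number in brackets) of each list with at least 10 tested members that were called higher (right) or lower (left) in the unadjusted fit (open bars) and in both fits (filled bars). Dotted lines mark 7.39% higher and 5.87% lower over all genes in both fits, and the filled bars of the respiratory, ribosomal and proteasome lists are shorter than their open bars.

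Of 23 glycolysis genes 3 rose and 0 fell, among them Tpi1, triose phosphate isomerase, from 54.5 ± 11.3 to 83.7 ± 9.42 CPM, and Ldhb, a lactate dehydrogenase chain, from 38.8 ± 6.75 to 63.5 ± 2.7 CPM. Of 24 TCA cycle genes 4 rose and 0 fell. Without Foxp3-deficient replicates 1 and 3, 1 glycolysis and 1 TCA cycle gene rose and 1 and 2 fell. With any 1 library left out 2 to 3 and 2 to 4 rose, and without Foxp3-deficient replicate 3, 2 genes of each list fell. Of 21 sterol and fatty acid synthesis genes 1 rose, the demethylase gene Cyp51, whose unadjusted call was lost without Foxp3-deficient replicate 3, 4 or 5 or double-deficient replicate 3 or 5 (0.31 to 0.49). The risen count of that list was 0 to 3, 3 without Foxp3-deficient replicate 1, and 2 fell without Foxp3-deficient replicate 3. Of 24 amino acid response and tRNA charging genes 3 rose and 2 fell, but 1 rose without Foxp3-deficient replicate 3 or 4 or double-deficient replicate 2, 3 or 4. In that list 0 fell without double-deficient replicate 3 or 4, and 1 without Foxp3-deficient replicate 1 or 4 or double-deficient replicate 5. Trib3, a pseudokinase of the amino acid response that binds AKT, was at 19.1, 30.9, 23 and 20.8 CPM in double-deficient and 11.6, 7.79, 10.9 and 11.7 CPM in Foxp3-deficient libraries. Its groups did not overlap, and Trib3 rose 2.23-fold (log2 fold change 1.16 with an SE of 0.18, edgeR adjusted p = 0.000546). Of 30 proliferation genes 0 rose and 1 fell, the replication helicase subunit Mcm4, 1.26-fold from 204 ± 13.3 to 163 ± 14.3 CPM (edgeR adjusted p = 0.00763). Of that list 3 fell without Foxp3-deficient replicate 3, and 2 without Foxp3-deficient replicates 1 and 3.

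Of 20 apoptosis and survival genes, 6 rose and 1 fell. Bid, a BH3-only protein that links death receptors to mitochondria, was at 65, 63.3, 61.3 and 71.9 CPM in double-deficient and 34.2, 37.6, 30.8 and 36.4 CPM in Foxp3-deficient libraries, near the 68.8 ± 1.98 CPM of WT. Bid rose 1.88-fold (log2 fold change 0.91 with an SE of 0.09, edgeR adjusted p = 1.15e-05). Bbc3, the BH3-only protein PUMA, rose 1.52-fold from 40.5 ± 3.61 to 61.4 ± 5.03 CPM (edgeR adjusted p = 0.000968). The count of risen members was 2 without double-deficient replicate 5 and 3 without Foxp3-deficient replicate 1 or 4, and the fallen count ran from 0 to 2.

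Of 27 interferon response genes, 4 rose and 1 fell, and 2 rose without Foxp3-deficient replicate 1 or double-deficient replicate 3. The fallen count was 0 without Foxp3-deficient replicate 1 or 3 or double-deficient replicate 2, 4 or 5. Gbp3, an interferon-inducible GTPase, was at 169, 197, 154 and 183 CPM in double-deficient and 67.9, 81.8, 71.4 and 74.3 CPM in Foxp3-deficient libraries and rose 2.38-fold (log2 fold change 1.25 with an SE of 0.11, edgeR adjusted p = 2.94e-06). Of 14 inhibitory receptors, 2 rose and 0 fell (2 fell without Foxp3-deficient replicate 1), Lag3 and Havcr2, which encodes TIM-3, from 0.504 ± 0.527 to 3.1 ± 1.64 CPM (edgeR adjusted p = 0.00628). Of 18 genes induced by the T cell receptor, 2 rose, Irf4 and Tnfrsf4, and 1 to 6 rose with any 1 library left out, 6 without Foxp3-deficient replicate 3 and 1 without Foxp3-deficient replicate 5 or double-deficient replicate 3, 4 or 5. Of 17 dissociation and heat shock genes 1 rose (3 without Foxp3-deficient replicate 3), the immediate early gene Ier2, and the list's sum was 20808 to 25017 CPM in double-deficient and 7447 to 28212 CPM in Foxp3-deficient libraries, where replicate 3 was highest. Ier2 was at 1437 CPM in that library and at 500 to 709 CPM in the other 3, and its call was lost in the unadjusted fit without any library other than Foxp3-deficient replicate 3, at 0.65 to 1.24.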

How the data were processed

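RNA of splenic Treg cells was amplified with SMART-Seq v4 and sequenced on Illumina instruments, per the labels' protocols. The authors deposited whole-read counts per gene, aligned with STAR 2.5.1b to GRCm38 (mm10) and counted with HTSeq, per the submitters' processing notes. The HTSeq version, strand setting and annotation release were not given in the sources used here, and the labels name 2 different library kits.

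Counts of all 12 libraries were scaled by TMM, filtered by filterByExpr (13196 of 25189 genes kept) and fitted with edgeR 4.0.16 (R 4.3.3) by robust quasi-likelihood, without covariates. P-values were Benjamini-Hochberg adjusted over all genes, with a threshold of 0.05. Summary rows of the counter were left out of library sizes. Gene reads per library ran from 16603621 to 23382341 in the 8 libraries compared, which sets the counting precision, and intervals cover counting error only. In the second fit, natural-spline trends (5 degrees of freedom) of each library's log2 CPM deviations on log2 transcript length and on GC content (GENCODE M21 models, GRCm38; 97.5% of genes matched by symbol or synonym), fitted on genes averaging 5 CPM or more, entered as offsets. The code was tested on simulated data. Alternatives were other scalings, filters, trend models, a replicate block, DESeq2 1.42.0, limma-voom (3.58.1) and leaving libraries out.

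Named genes were Rictor and Foxp3, up to 8 risen and 8 fallen genes of largest fold among those called in both fits, with at least 10 CPM and no overlap between groups, all mTOR complex members, and the called members with the lowest adjusted p of every other list, at most 3. Il2ra, Nrp1, Itgae, Nt5e, Icos, Prdm1, Ebi3, Ctla4, Ikzf2, Foxo3, Sgk1, Gata3, Il1r1, Pik3r5, Ndrg1, Prkcb, Cd40lg, Satb1, Ccr9, Itgb1, Ccr3, Eno1, Klf2, Cd4 and 2610305D13Rik were chosen after their values were seen. The comparison and the gene lists were chosen with earlier results of these data known. Promoter sequences are from RefSeq (GRCm38.p6). Results of some list members are not reported here.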

Additional observations from a re-analysis of the deposited data

Results flagged for a closer look

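Of 280 sets of 4 libraries of one group, 13 held a library whose gap to the nearest of the other 3 exceeded Dixon's limit, where chance gives about 1 in 20. Foxp3-deficient replicate 1 stood apart for Dapl1 (6.98 CPM, the others 12.8 to 13.4), Iigp1 (58.4 CPM, the others 79.9 to 84), Cyp51 (123 CPM, the others 87.4 to 89.6) and Pik3r5 (241 CPM, the others 201 to 208). Foxp3-deficient replicate 3 stood apart for Plac8 (11.9 CPM, the others 1.73 to 3.15), Havcr2 (1.29 CPM, the others 0.155 to 0.303) and Dusp2 (1025 CPM, the others 565 to 618). Foxp3-deficient replicate 5 stood apart for Icos (165 CPM, the others 97.5 to 109), Itgb1 (1354 CPM, the others 491 to 561) and 2610305D13Rik (0.0433 CPM, the others 0). Double-deficient replicate 2 stood apart for Tsc2 (94.7 CPM, the others 81.3 to 82.8). Double-deficient replicate 3 stood apart for Stat4 (198 CPM, the others 175 to 178) and Cd4 (1007 CPM, the others 807 to 834). Of these genes, Plac8, Dapl1, Stat4, Havcr2, Pik3r5, Itgb1 and 2610305D13Rik had groups that did not overlap and passed both fits.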

How the results depend on the processing

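The count of 3585 calls stayed within 1.5 times under another scaling, low-count filter, DESeq2 or limma-voom (3032 to 4136). It was 2382 (1205 higher) when only the 8 libraries compared entered the fit, 1852 (1073 higher, 779 lower) with the trends removed and a replicate block, and 1863 (994 higher, 869 lower) with the trends removed and without Foxp3-deficient replicates 1 and 3. With 1 library left out, in either fit, it ran from 1616 to 4430 (915 to 2283 higher, 698 to 2147 lower). Calls in both fits ran from 1133 (without double-deficient replicate 5) to 2117 (without Foxp3-deficient replicate 5), those lower from 475 to 920. Calls in both fits numbered 1329 with the replicate block and 1357 without Foxp3-deficient replicates 1 and 3. Of these, 1184 and 1021 were among the 1749 of the main fits. Samples with the same replicate number showed no shared deviation (correlations of -0.04, -0.02 and 0.06, beside -0.18 to 0.15 for different numbers). These 3 values cannot exclude a pairing, and the main fits assumed none.

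The trend was modelled in 4 ways, and the one used was chosen after seeing the data, for leaving the least trend among genes of at least 5 CPM when GC is included. Spearman's rho of log2 fold change with transcript length across 9340 such genes was -0.52 unadjusted, -0.01 as used, -0.01 with length alone, -0.15 with merged exon length and -0.30 with that length and the trend fitted on all genes. Across all 13072 genes with a length it was -0.35 unadjusted, 0.10 as used, 0.007 with merged exon length and -0.15 with the trend fitted on all genes, so there the merged-exon version left less trend than the one used. The last 2 versions gave 1966 and 2379 calls in both fits, of which 1546 and 1623 were among the 1749.

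Rictor was at -0.042 with length alone removed, -0.20 with GC as well, -0.20 with merged exon length, -0.21 with that trend fitted on all genes, -0.19 with the replicate block and -0.26 without Foxp3-deficient replicates 1 and 3, none of them called, and at -0.49 to -0.12 with 1 library left out. The log2 fold changes of 13 named genes turned sign under some settings, of which mt-Nd1, Tsc2 and Msmo1 were called in the unadjusted fit and 0 with the trends removed. With the trends removed, Mlst8 was at 0.0428, Telo2 at 0.0728, Akt1s1 at -0.066 and mt-Nd1 at -0.0323. With length alone removed, Akt1s1 was at -0.11. With the replicate block as well as the trends removed, Mapkap1 was at 0.0258, Mlst8 at 0.0548, Tti1 at 0.0266, Telo2 at 0.10, Akt1s1 at -0.0391 and mt-Nd1 at -0.0274. With merged exon length, Telo2 was at 0.24, Rptor at 0.0121 and mt-Nd1 at -0.0686, and Telo2 was at 0.15 with that trend fitted on all genes. Without Foxp3-deficient replicates 1 and 3, Mlst8 was at 0.0709, Telo2 at 0.12 and Sgk1 at 0.0609. With the trends removed too, Foxp3 was at 0.13, Mapkap1 at 0.0476, Mlst8 at 0.20, Tti1 at 0.0058, Telo2 at 0.23, Akt1s1 at -0.10, mt-Nd1 at -0.12 and Sgk1 at 0.0871. With 1 library left out in either fit, the ranges were Foxp3 -0.33 to 0.0412, Mapkap1 -0.14 to 0.0203, Mlst8 -0.20 to 0.11, Tti1 -0.20 to 0.045, Telo2 -0.19 to 0.18, Rptor -0.67 to 0.0825, Akt1s1 -0.15 to 0.13, mt-Nd1 -0.0675 to 0.86, Deptor -0.87 to 0.15, Tsc2 -0.47 to 0.0491, Msmo1 -0.0733 to 0.38, Ikzf2 -0.53 to 0.0537 and Sgk1 -0.15 to 0.17. The cause of these moves was not tested. With 4 libraries a group, an exact permutation test of a single value cannot go under p = 0.0286, and the low levels of genes such as Ccl4 and Ccr3 limit their precision.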
